A study of Arabidopsis thaliana with 14 samples.

Results

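Regions between convergent genes are stretches of intergenic DNA whose left neighbour is transcribed rightwards and whose right neighbour is transcribed leftwards, so that 2 gene ends, and no gene start, face the region. They were taken from the tables of regions that the authors deposited for 3 forms of FLM in Arabidopsis thaliana. A region was a member when it lay on chromosomes 1 to 5, its centre overlapped no gene, its left neighbour was on the plus strand, its right neighbour was on the minus strand, and the nearer of both genes was under 2000 bp away. The members numbered 2546 of 43690 deposited regions (5.83%). Of these, 1337 belonged to gFLM (6.72% of its 19893 regions), 711 to iFLMbeta (5.16% of 13791) and 498 to iFLMdelta (4.98% of 10006). No measured value entered the choice, and 4 rows without a strand were dropped.

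The series measured chromatin binding of FLM by ChIP-seq (chromatin immunoprecipitation followed by sequencing) in Columbia-0 seedlings collected at zeitgeber time 8 h in long days. gFLM-GFP was compared in 3 libraries with 3 untagged gFLM controls, from seedlings 15 days old grown at 16 °C. iFLMbeta-GFP and iFLMdelta-GFP were each compared in 2 libraries with 2 untagged controls of their own, from seedlings 10 days old grown at 23 °C. Tagged protein was precipitated with an antibody against GFP, except that the label of gFLM-GFP replicate 2 names no antibody, and the controls are labelled as precipitations from plants with untagged FLM protein. The labels do not name the promoter of a construct, the number of lines or the plants pooled per library, so the spread behind each p-value is one between libraries and may be technical only. gFLM differs from both variants in age and temperature as well as in construct, and these cannot be told apart.

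FLM is a MADS-box transcription factor that delays flowering at cool ambient temperatures, together with the related protein SVP. FLMbeta and FLMdelta are proteins made from alternatively spliced FLM transcripts. MADS-box proteins bind DNA as dimers at short A/T-rich elements called CArG boxes, and their best studied sites lie upstream of gene starts. The DNA between convergent genes is where both transcripts end and are polyadenylated, and it holds no promoter of either annotated neighbour.

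Reads in deposited regions of the nuclear chromosomes are the depth that the tables show, since they give no total of mapped reads. In gFLM they numbered 435306, 74499 and 155359 in the GFP libraries of replicates 1, 2 and 3, against 180798, 17161 and 195081 in the control libraries. Replicate 2 was the shallowest of both kinds, and its control had a median of 0 reads per member. The iFLMbeta libraries held 194811 and 181951 GFP reads against 108460 and 52819 control reads, and the iFLMdelta libraries 211113 and 101937 GFP reads against 85063 and 71083 control reads. For gFLM, medians, passing counts by class, counts of ratios above a level, overlap medians and edgeR calls are also given without replicate 2.

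The members fell between 1167 gene pairs in gFLM, 639 in iFLMbeta and 451 in iFLMdelta. Several members shared a pair in 154, 67 and 46 cases, in the same order of constructs, with at most 4 regions in a pair. Both neighbours were known to the RefSeq gene table for 1125 pairs of gFLM, and 889 of these (79.0%) were next to each other there. The shares were 450 of 608 (74.0%) in iFLMbeta and 315 of 430 (73.3%) in iFLMdelta, and another annotated gene stood between the neighbours of the remaining pairs, so that some members may face a gene start that the deposited tables do not list. Members covered all 5 chromosomes, at 6.04% to 7.03% of a chromosome's deposited regions in gFLM, 4.29% to 5.48% in iFLMbeta and 4.42% to 5.37% in iFLMdelta.

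The nearest gene was a median of 264 bp away in gFLM, 506 bp in iFLMbeta and 630.5 bp in iFLMdelta. Members were small, with a median of 179 bp in gFLM against 177 bp over all its deposited regions, 156 against 156 bp in iFLMbeta and 153.5 against 154 bp in iFLMdelta. By the 2000 bp limit, the outermost gFLM member lay 1995 bp from its nearest gene (between AT1G31020 and AT1G31030, log2 ratio -0.16) and the first region beyond it at 2002 bp (between AT2G14180 and AT2G14190, -0.95). The outermost iFLMbeta member lay at 1958 bp (AT1G33600 and AT1G33607, -0.51), and beyond the limit came a region 2034 bp from NCED3, a key enzyme of abscisic acid synthesis, at 0.82. That region, at rank 142, had an authors' false discovery rate of 0.025 and 0.00111 in the 2 replicates. The limit thus left out a region that passed by the rule used below. In iFLMdelta the outermost member lay at 1995 bp (AT5G34847 and AT5G34840, 0.11) and the next region at 2010 bp (AT4G08035 and AT4G08033, 0.38).

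The members' enrichment over control centred close to that of all deposited regions. Enrichment is given as a log2 ratio, the log2 of (GFP reads + 1) over (control reads + 1) with each library scaled by its reads in deposited nuclear regions, averaged over the authors' replicates. The median ratio over the convergent regions was -0.29 in gFLM, against -0.32 over all its deposited regions. In iFLMbeta it was -0.15 against -0.15, and in iFLMdelta -0.01 against -0.03. From the 10th to the 90th percentile the members ran from -0.88 to 0.38 in gFLM, from -0.60 to 0.50 in iFLMbeta and from -0.47 to 0.59 in iFLMdelta. A ratio of 0 marks no fixed level, because the reads in deposited regions set the scale: TMM scaling put the gFLM median at -0.01 and that of iFLMdelta at -0.15.

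The 3 gFLM replicates differed in level. Their median ratios over the convergent regions were 0.05, -1.12 and 0.09 in replicates 1, 2 and 3, so replicate 2 stood below the other two. Without both libraries of replicate 2 the gFLM median was 0.09. The medians of the 2 replicates were 0.03 and -0.20 in iFLMbeta and 0.10 and 0.14 in iFLMdelta.

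**Figure D1:**
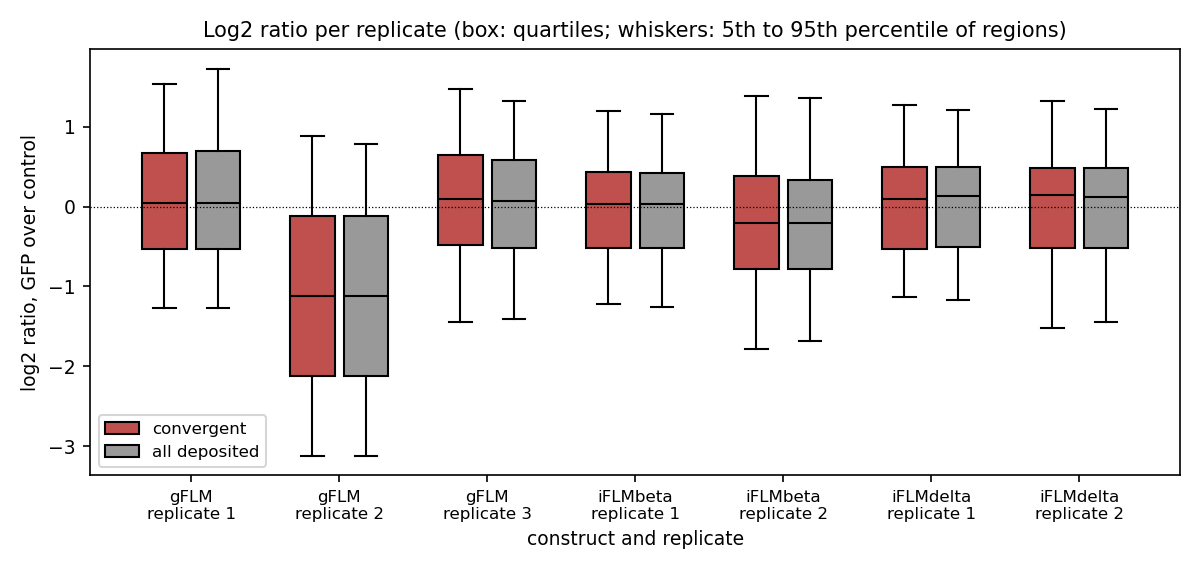
Log2 ratio of GFP over control reads (vertical axis) in each replicate of each construct (horizontal axis) for the convergent regions (red) and all deposited regions (grey). Boxes give the quartiles with the median as a line, and whiskers the 5th to 95th percentile of regions. The red and grey boxes nearly coincide within each replicate, and gFLM replicate 2 lies lowest with a median of -1.12 in both.

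Ratios of the same member were then compared between replicates. The ratio was above 0 in every replicate at 60 gFLM members (4.49%, against 4.85% of all its deposited regions), at 101 iFLMbeta members (14.2% against 12.9%) and at 94 iFLMdelta members (18.9% against 17.9%). Without gFLM replicate 2 it was above 0 in both others at 402 gFLM members (30.1%, against 28.1% of all nuclear regions). Across the members, which are not independent replicates, the Spearman correlation of ratios between replicates was -0.08, 0.05 and -0.26 for the 3 gFLM pairs of replicates, -0.48 in iFLMbeta and -0.44 in iFLMdelta. In both variants this correlation rests on setting columns of the same number against each other, which the labels tie to no single library. The GFP reads themselves correlated at 0.68, 0.39 and 0.34 in gFLM, 0.27 in iFLMbeta and 0.20 in iFLMdelta.

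Next, low values of the authors' q, a Benjamini-Hochberg false discovery rate per replicate, were counted over the members. A region is called passing here when each replicate of its construct gave a q of 0.05 or less. In gFLM 1159 members had no q at that level, 157 had it in 1 replicate, 15 in 2 and 6 in all 3. The 157 were carried by replicate 1 in 101 cases, by replicate 2 in 8 and by replicate 3 in 48. In iFLMbeta 99 members had a low q in 1 replicate (65 in the first, 34 in the second) and 3 in both. In iFLMdelta the counts were 87 (65 and 22) and 3. A low q in 1 replicate or more was thus held by 13.3% of gFLM members, 14.3% of iFLMbeta members and 18.1% of iFLMdelta members, against 13.3%, 16.1% and 20.3% of all deposited regions.

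The share of convergent regions that passed was set beside that of other intergenic classes, as counts with no test of the difference. In gFLM 6 of 1337 convergent regions passed (0.449%), against 35 of 3805 divergent regions, which face 2 gene starts (0.920%), 61 of 6206 tandem regions, which face 1 start and 1 end (0.983%), and 159 deposited regions in all (0.799%). In iFLMbeta 3 of 711 convergent regions passed (0.422%), against 38 of 1695 divergent (2.24%), 81 of 2898 tandem (2.80%) and 202 regions in all (1.46%). In iFLMdelta 3 of 498 convergent regions passed (0.602%), against 0 of 956 divergent, 7 of 1863 tandem (0.376%) and 41 regions in all (0.410%). Without gFLM replicate 2 the gFLM counts were 18 convergent regions (1.35%), against 71 divergent (1.87%), 139 tandem (2.24%) and 356 in all (1.79%). In iFLMbeta 37 convergent regions (5.20%) had a low q in the second replicate and 68 (9.56%) in the first, against 6.36% and 11.2% of all regions. In iFLMdelta 25 (5.02%) had one in the second replicate and 68 (13.7%) in the first, against 5.57% and 15.1% of all, so the iFLMdelta share stood above that of all regions only when both replicates were required.

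**Figure D2:**
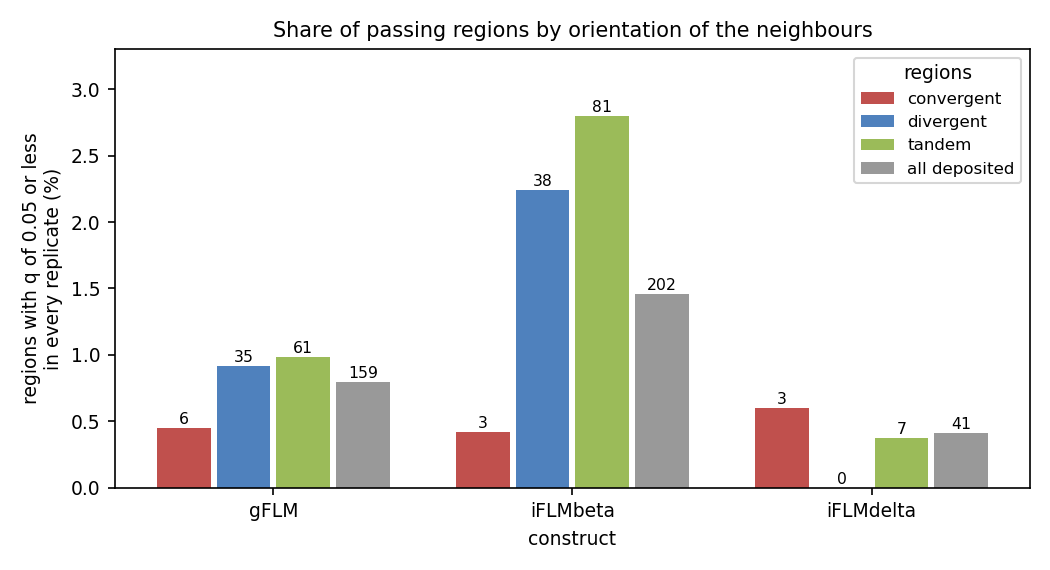
Percentage of regions with a q of 0.05 or less in every replicate (vertical axis) for convergent, divergent, tandem and all deposited regions of each construct (horizontal axis), with the number of regions above each bar. The convergent bar is the lowest of those shown in gFLM (0.449%) and iFLMbeta (0.422%), and in iFLMdelta it rests on 3 regions. Regions centred in genes have no bar of their own.

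The same classes were compared by the size of the ratio. A mean log2 ratio above 1, that is more than 1 doubling of GFP over control, was reached by 21 convergent regions in gFLM (1.57%), against 1.66% of divergent, 2.11% of tandem and 1.68% of all regions. In iFLMbeta it was reached by 17 (2.39%), against 2.18%, 2.93% and 2.13% of the same classes. In iFLMdelta it was reached by 20 (4.02%), against 1.57%, 2.58% and 2.68%. A ratio above 1 in every replicate was held by 5 convergent regions in gFLM (0.374%, against 0.462% of all its regions), by 1 in iFLMbeta (0.141% against 0.667%) and by 7 in iFLMdelta (1.41% against 0.859%). Without gFLM replicate 2 the mean ratio was above 1 at 98 gFLM members (7.33%, against 7.03% of all nuclear regions) and both ratios were above 1 at 40 (2.99% against 2.22%).

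The strongest convergent region of gFLM lay between ACA7 and AT2G22955 (chr2:9770514-9770879, TAIR10), at rank 18 of the authors' list. ACA7 encodes a calcium-pumping ATPase, and AT2G22955 is annotated as a non-coding RNA. The region held 290, 64 and 51 reads in the GFP libraries of replicates 1, 2 and 3, against 3, 0 and 6 reads in the controls. All 3 GFP libraries were far above all 3 controls, without overlap also after scaling. The log2 ratio was 4.01 ± 0.85 (SD, n = 3). The centre was 3 bp from the end of AT2G22955 and 930 bp from that of ACA7. Membership was judged by the centre, and this region of 366 bp also extended into AT2G22955.

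Another, at rank 88, lay between AT5G01210 and SQD2, a sulfolipid synthase gene (chr5:86064-86488). It held 153, 32 and 37 GFP reads against 29, 2 and 22 control reads, with a ratio of 1.16 ± 0.16 (SD, n = 3). The ratio was nearly equal in the 3 replicates, at 1.09, 1.34 and 1.05. The region's centre touched the end of AT5G01210, so that part of the region lay in that gene.

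Of the passing gFLM regions, 3 more had smaller ratios or fewer reads. At IDD2, which encodes a zinc finger transcription factor of the INDETERMINATE-DOMAIN family, and AT3G50710 (chr3:18842991-18843359, rank 107) 104, 17 and 29 GFP reads stood against 15, 0 and 17 control reads, a ratio of 1.52 ± 0.50 (SD, n = 3), and the RefSeq table places another gene between both. Between CEP3, a cysteine endopeptidase gene, and BT2, which encodes a BTB and TAZ domain protein (chr3:17907881-17908252, rank 165), 109, 27 and 27 GFP reads stood against 27, 2 and 23 control reads, a ratio of 0.79 ± 0.29 (SD, n = 3). Between AT1G29630 and AT1G29640 (chr1:10353702-10354136, rank 213) 70, 26 and 23 GFP reads stood against 18, 3 and 16 control reads, a ratio of 0.70 ± 0.11 (SD, n = 3). After scaling, the GFP libraries were above the controls without overlap at the first 2 of these, and at AT1G29630 the groups overlapped because the control of replicate 2 was above the GFP libraries of replicates 1 and 3.

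**Figure D3:**
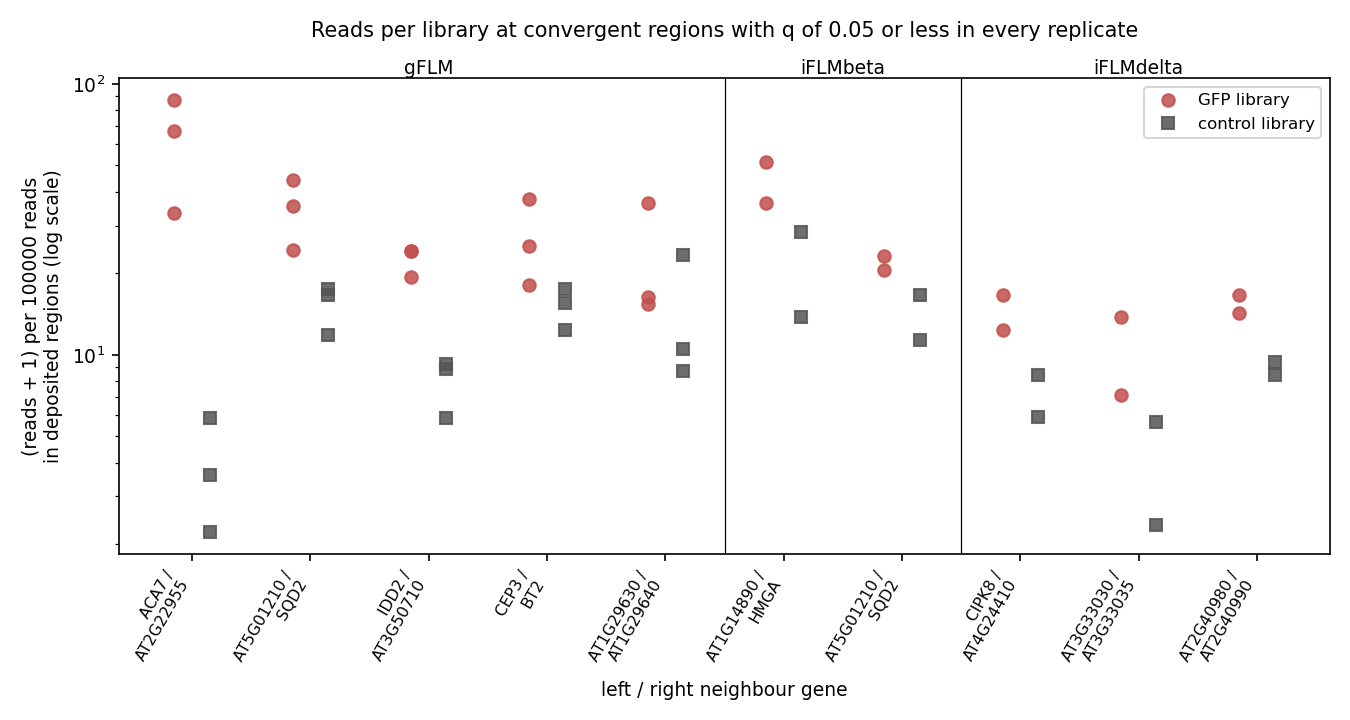
Reads plus 1 per 100000 reads in deposited regions (vertical axis, log scale) at 10 convergent regions that passed, in each GFP library (red circles) and each control library (grey squares), grouped by construct. ACA7/AT2G22955 has the widest gap, and AT1G29630/AT1G29640 is the one gFLM region shown where the libraries overlap.

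In iFLMbeta the best ranked convergent region (rank 43) lay between AT1G14890 and HMGA, which encodes a high mobility group protein with AT-hooks (chr1:5138021-5138309). It held 70 and 93 GFP reads against 14 and 14 control reads, a ratio of 1.13 ± 0.38 (SD, n = 2), and both GFP libraries exceeded both controls. gFLM had a region at the same place (chr1:5138005-5138315, rank 214) with 111, 20 and 15 GFP reads against 5, 0 and 18 control reads. Its ratio of 1.77 ± 1.50 (SD, n = 3) came from replicates 1 and 2, at 2.95 and 2.27, and not from replicate 3, at 0.08 with a q of 0.2, so it did not pass.

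The SQD2 region passed in iFLMbeta as well as in gFLM. At AT5G01210 and SQD2 (chr5:86127-86445, rank 134) 39 and 41 GFP reads stood against 17 and 5 control reads, a ratio of 0.67 ± 0.51 (SD, n = 2). The libraries did not overlap after scaling. The next convergent regions by rank missed the threshold in the first replicate: AT3G62620 and AT3G62630 (rank 186) at 1.35 ± 1.34, and AT1G18410 with BEE1, a transcription factor gene responsive to brassinosteroid (rank 226), at 1.66 ± 1.44 (SD, n = 2 each). The last lay 557 bp from AT1G18410 and 2227 bp from BEE1.

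iFLMdelta had 3 passing regions. Of these, 0 overlapped a deposited region of gFLM and 0 one of iFLMbeta, where 7.32% and 7.37% of all iFLMdelta regions did. Between CIPK8, which encodes a kinase that acts with calcineurin B-like calcium sensors, and AT4G24410 (chr4:12620760-12620946, rank 93) 25 and 16 GFP reads stood against 4 and 5 control reads, a ratio of 1.02 ± 0.06 (SD, n = 2). Between AT3G33030 and AT3G33035, both annotated as pseudogenes (chr3:13575358-13575524, rank 175), 14 and 13 GFP reads stood against 1 and 3 control reads, a ratio of 1.44 ± 0.22. Between AT2G40980 and AT2G40990 (chr2:17104811-17105018, rank 208) 29 and 16 GFP reads stood against 7 and 5 control reads, a ratio of 0.79 ± 0.27. GFP libraries lay above controls at all 3, but every q was between 0.0294 and 0.0458, close to the threshold, and at q of 0.01 or less 0 were left. The SDs of these regions depend on which control column was set against which GFP column.

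The 4 other best ranked iFLMdelta members rested on 1 replicate each. The region between RHA1A, a RING finger protein gene, and AT4G11375 (rank 58) had ratios of -0.53 and 3.29, and that by ESC, which encodes an AT-hook protein (rank 116), had -0.48 and 1.98. The first lay 5730 bp from RHA1A and 768 bp from AT4G11375, and the RefSeq table places another gene between both. The region between GAE6, an epimerase gene of pectin precursor synthesis, and GRP4, a glycine-rich RNA-binding protein gene (rank 126), had -0.63 and 1.26, and that between AT1G41790 and AT1G41795 (rank 137) had 3.01 and -0.94. In each of these 4 the replicates differed in sign, with columns of the same number set against each other.

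The quasi-likelihood test of edgeR on the raw read counts, fitted on all deposited regions of a construct with Benjamini-Hochberg adjustment at 0.05, called 2 of 383 tested gFLM members higher in GFP and 0 lower. Over all regions it called 30 of 5230 higher (0.574%), so in this fit the members' share (0.522%) was near that of the whole list. Regions were called on the same libraries, so the test is circular and ranks the regions by how clearly their reads set GFP apart. The filter on low counts asks for reads in as many libraries as a group holds, so GFP libraries alone can admit a region. Adjusted p-values of single regions are thus no independent support for them. Replicate numbers were taken to pair the gFLM libraries. With replicate as a block 5 of 383 members (1.31%) were called higher and 0 lower, against 2.20% of all regions higher and 0.0191% lower. DESeq2 called 2 members (0.522%), against 1.85% of all regions. With the block and by DESeq2 the members' share was thus below that of all regions, a difference that was not tested.

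ACA7/AT2G22955 was called, with an adjusted p of 3.6e-04 by edgeR, 7.77e-09 with the block and 9.21e-09 by DESeq2. With 3, 0 and 6 control reads, this region passed the filter through its GFP libraries. GFP was higher in 3 of 3 replicates, and the fitted log2 change was 4.70. Without both libraries of replicate 2 the adjusted p was 0.033, and the call ended only without the filter on low counts (edgeR adjusted p = 0.258). The SQD2, IDD2, CEP3/BT2 and AT1G29630/AT1G29640 regions were called by neither tool nor with the block: the lowest adjusted p over the alternatives was 0.16 at SQD2, 0.124 at IDD2, 0.447 at CEP3/BT2 and 0.44 at AT1G29630/AT1G29640.

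The second call of edgeR was a region that did not pass, between PYR1, an abscisic acid receptor gene, and MYC4, which encodes a transcription factor of jasmonate signalling (chr4:9929444-9929687, rank 128). It held 97, 9 and 20 GFP reads against 4, 0 and 7 control reads, and the scaled GFP libraries lay above the controls. This region, too, passed the filter on low counts through its GFP libraries. Its ratio was 1.98 ± 0.94 (SD, n = 3), and its q in replicate 2 was 0.131. The edgeR adjusted p was 0.0474, or 0.00121 with the block and 0.104 without replicate 2, and over the alternatives it ran up to 1. DESeq2 did not call the region and gave it no adjusted p (DESeq2 unadjusted p = 4.98e-04). It was called in 3 of the 11 settings that tested it. The centre was 47 bp from the end of PYR1. Of the members called with the block, 2 more are named here, after their values were seen: AT5G51812/PGM (edgeR adjusted p = 0.0229), and emb2735/DPA4 (0.0487). The first lay 1290 bp from AT5G51812 and 3305 bp from PGM, a plastid phosphoglucomutase gene.

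In iFLMbeta edgeR called 0 of 283 tested members, against 25 of 7337 regions in all (0.341%). At an unadjusted p under 0.05 there were 2 members higher and 1 lower, and DESeq2 called 0 members (0.259% of all regions) with 1 at an unadjusted p under 0.05. With the column numbers as a block 0 members were called, against 0.191% of all regions. The adjusted p was 1 at each of the 3 passing regions. In iFLMdelta edgeR called 0 of 170 tested members and 0.0% of all 4607 regions, with 0 members at an unadjusted p under 0.05 by either edgeR or DESeq2.

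The lists of the 3 constructs were compared by gene pair and by position. gFLM and iFLMbeta shared 279 convergent gene pairs (23.9% of the gFLM pairs and 43.7% of the iFLMbeta pairs). gFLM and iFLMdelta shared 169 (14.5% and 37.5%), iFLMbeta and iFLMdelta 144 (22.5% and 31.9%), and 71 of 1736 pairs occurred in all 3. By position, with an overlap of 1 bp or more, 139 gFLM members (10.4%) met an iFLMbeta region, against 11.8% of all gFLM regions, and 58 (4.34%) met an iFLMdelta region, against 3.69%. From the other side, 135 iFLMbeta members (19.0%, against 17.1% of all its regions) met a gFLM region, and 56 iFLMdelta members (11.2% against 7.32%) did. iFLMbeta members met an iFLMdelta region in 47 cases (6.61% against 5.34%).

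Passing members met across gFLM and iFLMbeta. Of the 6 passing gFLM members 5 overlapped a deposited iFLMbeta region, and 3 of those overlapped one that passed, ACA7/AT2G22955 and AT5G01210/SQD2 among them. The same share over all passing gFLM regions is not given here, so these counts cannot be read as particular to convergent regions. The iFLMbeta region at ACA7 (chr2:9770559-9770874, rank 42) was not itself a member, because its centre lay in the exon of AT2G22955. It held 57 and 66 GFP reads against 10 and 4 control reads, a ratio of 1.76 ± 0.29 (SD, n = 2), with an edgeR adjusted p of 0.175. The overlapping iFLMbeta regions at IDD2 and AT1G29630 did not pass, with ratios of -0.62 ± 0.88 and 0.21 ± 1.48 (SD, n = 2 each).

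Ratios were then compared at the overlapping regions where at least 1 of the pair was convergent. At 148 such gFLM and iFLMbeta regions the median ratio was -0.15 in gFLM and -0.06 in iFLMbeta. The median difference, gFLM minus iFLMbeta, was -0.04, the 10th and 90th percentiles of the difference were -0.98 and 0.79, and gFLM was higher at 70 of the 148. Without gFLM replicate 2 the gFLM median there was 0.18, and gFLM was higher at 89. The ratios of both constructs correlated across these regions at a Spearman rho of 0.23, against 0.35 over all 2356 overlapping regions. Both ratios were above 1 at 2 regions, those of ACA7 and HMGA.

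iFLMbeta and iFLMdelta were grown alike. At 49 of their regions the median ratio was -0.20 in iFLMbeta and -0.10 in iFLMdelta, with a median difference of -0.06 and a Spearman rho of -0.03, and both were above 1 at 0 regions. At 60 regions of gFLM and iFLMdelta the medians were -0.32 and -0.17, the median difference was -0.34 (-0.21 over all 734 overlapping regions) and rho was 0.00. Without gFLM replicate 2 the gFLM median there was -0.03, and gFLM was higher at 34 of the 60 in place of 23. These correlations are across regions, which share libraries and are not independent.

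**Figure D4:**
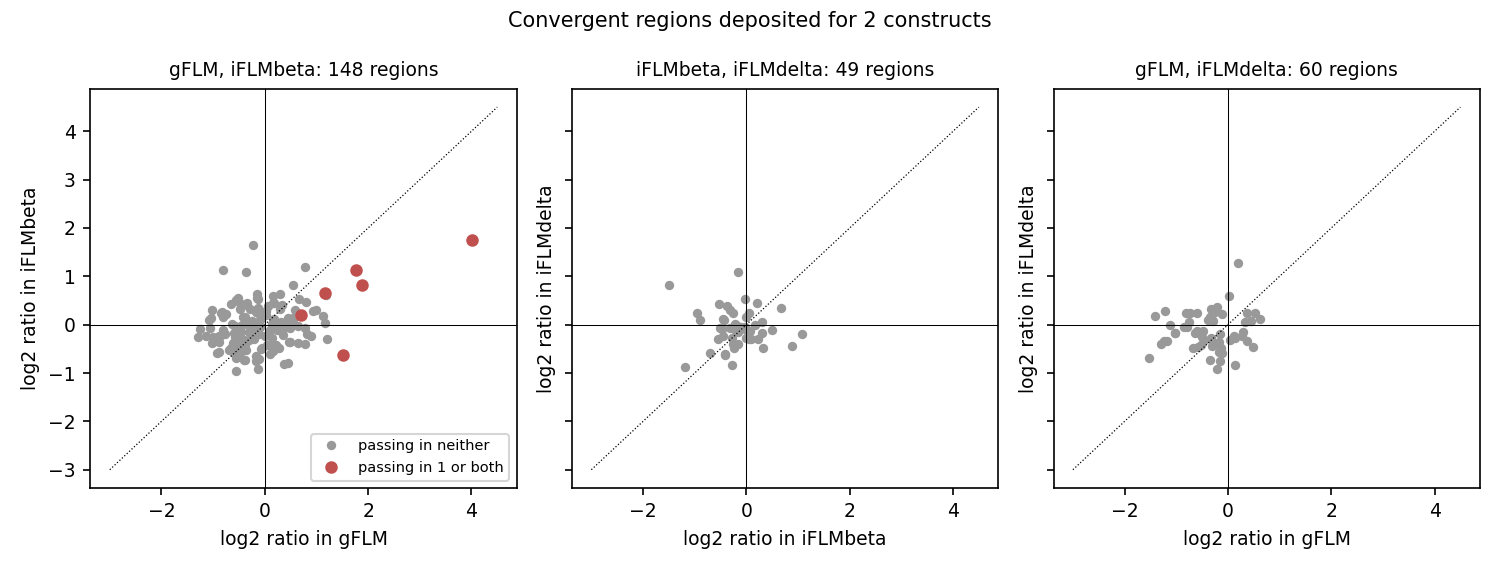
Mean log2 ratio in the first construct (horizontal axis) against that in the second (vertical axis) at overlapping regions of which at least 1 is convergent, for the 3 pairs of constructs. Red points passed in 1 or both constructs, and the dotted line marks equal ratios. The red points of gFLM and iFLMbeta lie right of 0 in gFLM with ACA7/AT2G22955 farthest out at 4.01 and 1.76, and the other 2 panels hold no red point.

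Whether enrichment differed between constructs was tested by the interaction term of edgeR over all overlapping regions. It called 0 of 122 tested convergent regions for gFLM against iFLMbeta (0.0% of 1971 in all), 0 of 36 for iFLMbeta against iFLMdelta (0.0% of 552) and 0 of 47 for gFLM against iFLMdelta (0.0% of 551). At an unadjusted p under 0.05 there were 2, 0 and 0 regions, and DESeq2 likewise called 0 in each with 2, 0 and 0. The 2 regions were ACA7/AT2G22955, with a fitted log2 difference of 2.64 (edgeR unadjusted p = 0.00287, adjusted p = 1), and IDD2/AT3G50710, with 1.97 (edgeR unadjusted p = 0.023, adjusted p = 1). Both were higher in gFLM, by differences that did not pass the test.

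Convergent regions beside listed flowering genes were few, and 0 of them passed, where 0.799%, 1.46% and 0.410% of all deposited regions passed in gFLM, iFLMbeta and iFLMdelta. Of 71 genes listed for flowering time, floral organ identity, light and temperature, and the clock, those that flanked a member were all from the flowering time list of 36. They were FT, SOC1, TOE1, TOE2 and TSF in gFLM (6 regions), AP1, CO, FT, SOC1 and TEM1 in iFLMbeta (5 regions), and FT, SOC1 and TSF in iFLMdelta (4 regions). In each construct only 2 of these regions had the listed gene as their nearer neighbour. Their median ratio in gFLM was -0.36, against -0.32 over all deposited regions, in iFLMbeta it was -0.15 against -0.15, and in iFLMdelta -0.28 against -0.03. The ratios ran from -1.29 to 0.55 in gFLM, from -0.25 to 0.48 in iFLMbeta and from -0.67 to 0.03 in iFLMdelta.

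The highest of them in gFLM lay 1542 bp past the end of TOE1, which encodes an AP2-like repressor of flowering (chr2:12224157-12224442, rank 602), with 33, 9 and 16 GFP reads against 9, 1 and 10 control reads and a ratio of 0.55 ± 0.38 (SD, n = 3). That gFLM region was nearer to AT2G28540, at 471 bp. In iFLMbeta the highest lay by CO, the photoperiod activator of FT, at 0.48 ± 0.77, and that by TEM1, a repressor of FT, was at 0.37 ± 0.80 (SD, n = 2 each). The first was 876 bp from CO and 174 bp from MIR865. The second was 3528 bp from TEM1 and 55 bp from AT1G25550. By FT, the mobile flowering signal, gFLM had a region at 0.32 ± 0.99 (SD, n = 3) and iFLMdelta one at 0.03 ± 0.48 (SD, n = 2). The gFLM region was 5368 bp from the end of FT and the iFLMdelta region 115 bp. Another annotated gene stood between FT and the right neighbour, AT1G65481.

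SOC1, an activator of flowering, allowed its end and its start to be compared. Its end faces that of AGL6, another MADS-box gene, and this gap held a member in all 3 lists. The gFLM region (chr2:18806933-18807221) had 57, 4 and 3 GFP reads against 45, 1 and 21 control reads, and its ratio was -1.29 ± 0.73 (SD, n = 3), below 0 in each replicate. The ratios were -0.25 ± 0.07 in iFLMbeta and -0.39 ± 1.12 in iFLMdelta (SD, n = 2 each). At the start of SOC1, a tandem region (chr2:18810997-18811327) passed in gFLM at 2.92 ± 0.43 (SD, n = 3), and one at the same place passed in iFLMbeta at 2.26 ± 1.35 (SD, n = 2). The nearest iFLMdelta region on that side (chr2:18812140-18812283), 1164 bp from SOC1, did not overlap it and did not pass, at -0.21 ± 0.97 (SD, n = 2).

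The AGL6 and SOC1 gap was 1 of 10 places where a gFLM member overlapped convergent regions of both variants (0.748% of the gFLM members). The others lay by PP2-B12 (a phloem protein gene), GA2OX4 (a gibberellin oxidase gene) and MYB112, ERF-1 (an ethylene response factor gene), SNRK2.2 (an abscisic acid signalling kinase gene), and 5 pairs with no symbol. At AT2G15042/AT2G15045 the iFLMbeta region (chr2:6512628-6512788) and the iFLMdelta region (chr2:6512844-6512978) did not overlap each other. At AGL6/SOC1 the iFLMbeta region began at chr2:18807217, just inside the end of the gFLM region at 18807221. None of the 10 passed in any construct. By the best gFLM rank the first was PP2-B12/AT5G24570, with a ratio of 0.52 ± 0.39 in gFLM (SD, n = 3), 0.05 ± 0.68 in iFLMbeta and 0.23 ± 0.03 in iFLMdelta (SD, n = 2 each). Its gFLM region lay 1892 bp from PP2-B12 and 522 bp from AT5G24570. The next was GA2OX4/MYB112, with 0.12 ± 0.50 in gFLM, -0.45 ± 0.35 in iFLMbeta and -0.24 ± 0.83 in iFLMdelta.

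Passing members were counted by their distance from a gene. In gFLM 533 members had their nearest gene under 200 bp away and 4 of these passed, against 1 of 374 at 200 to 500 bp, 0 of 250 at 500 to 1000 bp and 1 of 180 beyond. In iFLMbeta 2 of 173, 0 of 180, 0 of 167 and 1 of 191 passed in the same bins, and in iFLMdelta 3 of 97, 0 of 103, 0 of 145 and 0 of 153. The median ratio moved little with distance, from -0.36 to -0.26 over the 4 gFLM bins, from -0.20 to -0.12 in iFLMbeta and from -0.04 to 0.00 in iFLMdelta. These counts are small and were not tested.

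The share of deposited reads in convergent regions differed between GFP and control libraries by less than the spread between libraries in gFLM and iFLMbeta. No test within 1 construct could reach a p of 0.05. In gFLM they took 7.03%, 6.79% and 6.51% of the reads in deposited regions in the GFP libraries, against 7.36%, 6.51% and 6.52% in the controls. The means were 6.77% ± 0.264 in GFP and 6.80% ± 0.486 in control (SD, n = 3 each), a difference of -0.02 percentage points (exact permutation test, two-sided p = 0.8, where 0.1 is the smallest p possible). In iFLMbeta they took 4.47% ± 0.0697 in GFP and 4.44% ± 0.0950 in control (SD, n = 2 each, exact permutation p = 0.667), and in iFLMdelta 4.40% ± 0.0840 in GFP and 4.31% ± 0.108 in control (SD, n = 2 each, exact permutation p = 0.667), where 0.333 is the smallest p possible. Permuting within each construct over all 3 gave a difference of 0.03 percentage points (exact permutation p = 0.767 over 720 arrangements). None of these permutations kept GFP and control libraries paired by replicate number, although the gFLM libraries were taken as paired above.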

How the data were processed

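Each construct has 1 table of regions from the authors. Per the file headers and the description deposited with them, a row gives raw read counts of the GFP and control libraries and 1 q-value for every replicate (Benjamini-Hochberg). The authors also gave a rank product over the q-values, on a log2 scale, and the region's rank by it, a deposited score in which 1 is best. Distances run from a region's centre to the nearest gene on each side. The build is TAIR10, per the submitters' processing notes, and libraries were amplified over 18 PCR cycles from fragments of 150 to 400 bp, per the labels' protocols. Aligner, peak caller and treatment of duplicates are not given in the sources at hand, and PCR duplicates would inflate counts. The read counts carry counting error only as far as reads are independent molecules.

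From these counts edgeR 4.0.16 (R 4.3.3) tested GFP against control on all deposited regions of a construct, with TMM, filterByExpr and the quasi-likelihood test. DESeq2 1.42.0 was an alternative. The edgeR script was tested on simulated data. Interactions used pairs of regions that overlap by 1 bp or more. Log2 ratios used a pseudocount of 1. GFP column i was paired with control column i, as the description deposited with the tables numbers replicates. For iFLMbeta and iFLMdelta the columns name no single library and serve as unnumbered replicates. In gFLM, deviations of same-numbered GFP and control libraries correlated at 0.499, 0.232 and 0.112, so the numbers were taken to pair the libraries. Libraries of unlike number correlated at -0.346 to 0.061, so the pairing of replicate 3 was only weakly marked. Of the columns with values per sample, 0 had no sample or group. Other alternatives changed the pseudocount, the scaling, the filters, the q threshold, the distance limit, the overlap and the libraries used.

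Regions named were those that passed, the 5 best ranked per construct, those called by edgeR (up to 10), those in all 3 lists, those beside listed genes (up to 10) and those next to the distance limit. One gene pair is not reported here. The 2 regions called only with the block, the region at the start of SOC1 and the counterparts of passing regions in another construct were added after values were seen. The members and gene lists were chosen with earlier results of these data known. Symbols came from the RefSeq table of assembly TAIR10.1, used for names, gene types and order only. Without a genome, no sequence was read.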

Additional observations from a re-analysis of the deposited data

How the results depend on the processing

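The count of gFLM convergent regions called by edgeR was 2, and it was 5 with the replicate block, 1 with scaling by total reads, 0 with no filter on low counts, 1 without both libraries of replicate 2 and 1 to 3 without each library in turn. The number of passing regions depended on every replicate being counted: with the q-values of the remaining replicates only, 7 to 18 passed in gFLM in place of 6 (18 without replicate 2), 37 to 68 in iFLMbeta in place of 3 and 25 to 68 in iFLMdelta in place of 3. At q of 0.1 or less 17 passed in iFLMbeta and 19 in iFLMdelta, at q of 0.01 or less 0 in iFLMdelta, and with no limit on the distance 5 in iFLMbeta. The median ratio moved with the pseudocount of 5 in iFLMbeta (-0.58) and iFLMdelta (-0.28), and in iFLMdelta also with 0.5 (0.03) and with TMM scaling (-0.15). Without each library in turn it ran from -0.53 to 0.10 in gFLM (0.10 without the control of replicate 2), from -0.17 to -0.07 in iFLMbeta and from -0.03 to 0.05 in iFLMdelta. Set against divergent and tandem regions, the GFP minus control difference in reads was 0.00 on the log2 scale in gFLM, -0.07 in iFLMbeta, 0.05 in iFLMdelta and -0.01 over all 3, and without gFLM replicate 2 the difference in percentage points was -0.17 in gFLM and -0.02 over all 3. The cause of these changes was not tested. Of the alternatives for single named regions, 464 moved the ratio by less than 1 SD and 74 by more.

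Within iFLMbeta and iFLMdelta and in each interaction, the count of calls was 0 under every alternative run. In iFLMbeta the correlation between same-numbered columns was -0.086, and in iFLMdelta -0.198. With the replicate block 0 members were called in both, and 0 in iFLMdelta with the columns crossed. Where a library was left out and its group kept 1, that library was assumed to vary like the other groups. The search for CArG boxes was not run, since no genome was used here. Low counts limit the ratios: the control of gFLM replicate 2 had a median of 0 reads per member.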
